A study of Mus musculus with 17 samples.

Results

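The 17 libraries of this mouse brainstem series were divided by their level of Slc6a3, the dopamine transporter gene, and 7 libraries with Slc6a3 at 50 TPM or more were set against 10 libraries under 50 TPM, whatever the treatment. All came from tissue labelled locus coeruleus of male C57BL/6 mice, and the labels give no age. The 6 control libraries came from untreated mice, 5 from mice given vindeburnol and 6 from mice given VB-127, a derivative of it, each compound at 20 mg/kg by oral gavage once daily for 5 days, with tissue collection 24 hours later. Gavage without a compound is not among the labelled groups. Expression was measured by sequencing of poly(A) RNA and is given as TPM, a transcript level scaled to gene length and to the same total in every library. Read depth is unknown. The 2 sets were defined by 1 measured gene and are not groups of the study: the higher set held 2 control, 2 vindeburnol and 3 VB-127 libraries, and the lower set held 4, 3 and 3.

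Dopaminergic neurons of the ventral midbrain make dopamine from tyrosine through tyrosine hydroxylase (Th) and aromatic amino acid decarboxylase (Ddc), load it into vesicles with Slc18a2 and take it back up through Slc6a3. The transcription factors Pitx3, Nr4a2, Foxa1, Foxa2, Lmx1a and Lmx1b build and maintain these neurons. Noradrenergic neurons of the locus coeruleus and serotonergic neurons of the raphe share Ddc and Slc18a2 with them, and noradrenergic neurons also use Th, but neither kind depends on Slc6a3.

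Slc6a3 ranged from 1.04 to 123.6 TPM. In the set at 50 TPM or more the lowest, median and highest levels were 51.0, 67.6 and 123.6 TPM, and in the set under 50 TPM they were 1.04, 39.7 and 45.6 TPM. The library just inside the threshold was vindeburnol replicate 4 at 51.0 TPM, and the one just outside was vindeburnol replicate 1 at 45.6 TPM, so the sets meet without a wide gap. Within treatments, Slc6a3 ran from 1.04 to 73.8 TPM in controls, from 15.2 to 53.4 TPM after vindeburnol and from 17.4 to 123.6 TPM after VB-127. These levels chose the sets and are given as a description.

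2 libraries stood at the ends of this range, and results are given with and without them where it matters. Control replicate 1, with Slc6a3 at 1.04 TPM, had the highest Dbh (18.9 TPM), the gene of the enzyme that makes noradrenaline, and the highest Slc6a2 (8.94 TPM), the noradrenaline transporter gene. Its Ucn, the gene of the peptide urocortin, was listed at 0, and Ucn was between 22.4 and 42.0 TPM in the other 16 libraries. VB-127 replicate 1, with Slc6a3 at 123.6 TPM, had the lowest Tph2 (1.08 TPM) and Slc6a4 (0.218 TPM), genes of serotonin synthesis and reuptake, and its Dbh was listed at 0. Over the other 15 libraries Tph2 was between 5.82 and 129.5 TPM and Dbh between 0 and 12.3 TPM. The defining markers of the labelled locus coeruleus were low: the median over the 17 libraries was 1.08 TPM for Dbh and 0.300 TPM for Slc6a2, against 45.5 TPM for Slc6a3.

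**Figure D1:**
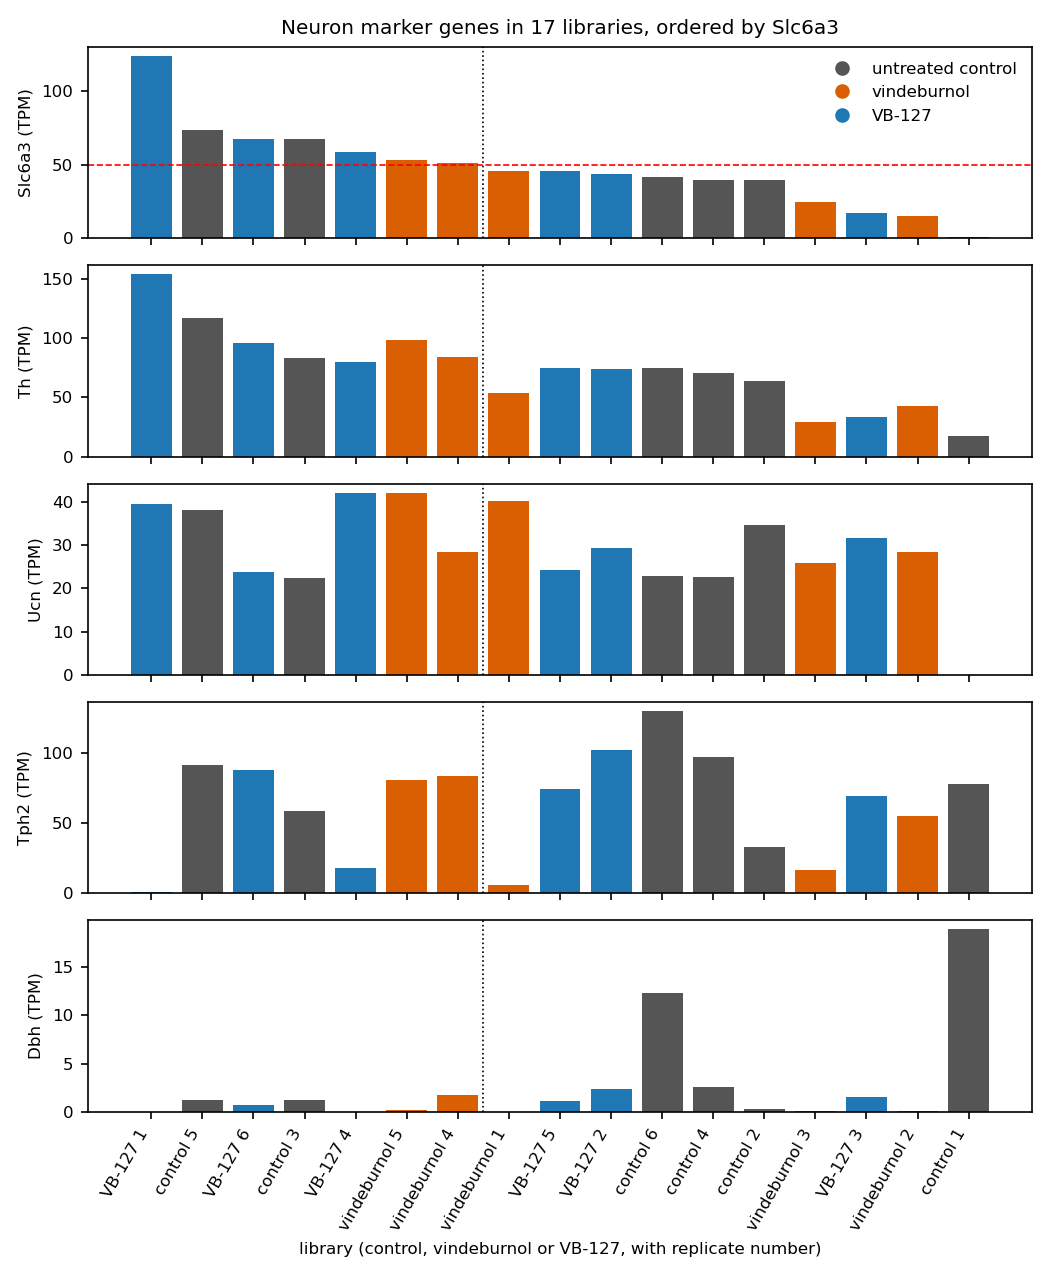
Levels in TPM (vertical axes, from 0) of Slc6a3, Th, Ucn, Tph2 and Dbh in each of the 17 libraries, 1 bar per library, ordered from highest to lowest Slc6a3 and coloured by treatment. The dashed line marks 50 TPM of Slc6a3 and the dotted line parts the sets. Th runs broadly in the order of Slc6a3, Ucn is level except for 0 in control replicate 1, and Tph2 does not follow the order.

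Th ran closely with Slc6a3. Its lowest, median and highest levels were 80.3, 95.6 and 153.8 TPM in the set at 50 TPM or more and 17.8, 58.7 and 74.5 TPM in the set under 50 TPM. The sets did not overlap, over all libraries or within any treatment. Over the 17 libraries, after treatment means were removed on the log2(TPM + 1) scale, Pearson's r of Th with Slc6a3 was 0.92 and Spearman's rho was 0.95; Foxa1, at 1.69 TPM on average, had r = 0.93 and rho = 0.84. These correlations are descriptions over libraries whose TPM values share a fixed total.

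The ratio of Th to Slc6a3 was 1.23 to 1.84 in the higher set (median 1.41) and 1.17 to 2.79 in 9 of the 10 libraries of the lower set. In control replicate 1 it was 17.1. That library, with the highest Dbh, kept 17.8 TPM of Th beside 1.04 TPM of Slc6a3, and Th is also used by noradrenergic neurons. The part of noradrenergic cells in its Th level was not tested.

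The starts of both genes are shown because Slc6a3 defined the sets and Th had the smallest p of all genes when fitted on it. Each sequence covers 250 bases before to 50 bases after the gene's start in the RefSeq promoter table of GRCm38.p6, a build older than the GRCm39 to which the reads were aligned. Slc6a3 lies on the plus strand at chr13:73536497-73536796 and Th on the minus strand at chr7:142899946-142900245, and both are written 5′ to 3′ along the gene. Capitals mark GC boxes (GGGCGG, or CCGCCC where it reads on the other strand) and the cAMP response element (CRE, TGACGTCA).
Slc6a3: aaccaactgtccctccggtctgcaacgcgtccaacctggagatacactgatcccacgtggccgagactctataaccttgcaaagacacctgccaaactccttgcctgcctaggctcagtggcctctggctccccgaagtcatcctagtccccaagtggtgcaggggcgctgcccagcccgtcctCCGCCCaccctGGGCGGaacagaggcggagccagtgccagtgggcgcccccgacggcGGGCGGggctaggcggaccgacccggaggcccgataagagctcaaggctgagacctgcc
Th: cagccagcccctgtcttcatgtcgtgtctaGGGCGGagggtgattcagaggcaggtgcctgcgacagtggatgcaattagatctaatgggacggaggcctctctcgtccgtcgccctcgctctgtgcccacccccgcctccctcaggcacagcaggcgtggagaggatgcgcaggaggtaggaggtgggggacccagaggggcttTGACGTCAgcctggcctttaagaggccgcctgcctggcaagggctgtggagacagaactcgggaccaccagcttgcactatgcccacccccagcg

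The Slc6a3 window held 3 GC boxes, starting at positions -66, -55 and -9 from the gene's start, the first of them on the opposite strand. The Th window held 1 GC box at -220 and 1 CRE at -45. Of 32851 promoters of the same length in the table, 35.7% held a GC box and 1.79% a CRE on either strand. The motif AAAGGTCA, bound by Nr4a2, was present in 1.51% of all promoters, and TAATCC, bound by homeodomain factors such as Pitx and Otx proteins, in 7.06%. Neither those 2 motifs nor the TATA box (TATAAA, in 13.6% of promoters) had a match in either window. The GC box, CRE and TATA box were chosen for the search after values had been seen, and a match is a run of letters, not a site shown to be bound. Of 8 genes looked for in the table, 4 were found.

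The main comparison asked which genes other than Slc6a3 differed between the 2 sets with treatment as a covariate. In limma's test over 16152 genes, 0 genes (0%) passed an adjusted p of 0.05, and the genes named for the smallest p had adjusted p = 0.9996. At an unadjusted p under 0.05 there were 422 genes (2.61%), of which 356 were higher (2.2%) and 66 lower (0.409%) in the set at 50 TPM or more. The tilt towards higher depended on scaling: 84.4% of the 422 genes were higher as deposited, against 55.4% of 464 genes after median-ratio scaling and 43.4% of 489 genes after quantile normalization. The median difference over all genes was 0.05 on the log2 scale as deposited. In bulk tissue, fewer cells of a type and less RNA per cell cannot be told apart.

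No gene of the dopaminergic lists passed that test, and the values below describe how the lists lay beside all genes. Of 62 genes in 4 lists, 61 were tested (Lmx1a, at 0 to 0.876 TPM, was not), and 54 had a higher estimate in the set at 50 TPM or more, where 70.6% of all genes did. At an unadjusted p under 0.05, 21 of the 61 were higher and 0 lower, beside 2.2% and 0.409% of all genes. The median difference of the 61 genes was 0.18 on the log2 scale, beside 0.05 for all genes. The medians of 10 endothelial and mural genes and of 5 red blood cell genes were larger, at 0.26 and 0.28. That of 9 astrocyte genes was 0.01. After median-ratio scaling 46 of the 61 dopaminergic estimates were above 0. Of the 61, 19 were higher at an unadjusted p under 0.05, beside 257 of all 16152 genes. After quantile normalization these counts were 44 and 16, beside 212 of all genes. The median difference over all genes was 0.005 and -0.003 after these 2 scalings. Without control replicate 1 these counts were 56 and 19, beside 311 of all genes. Without VB-127 replicate 1 they were again 56 and 19, beside 321 of all genes. The share of all genes with an estimate above 0 was not counted under these settings.

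Among 11 genes of dopamine synthesis, storage and breakdown, 5 had an unadjusted p under 0.05, all higher (2.2% of all genes were): Th, Aldh1a1, Ddc, Slc18a2 and Slc10a4. For Th the difference was 0.99 ± 0.28 (SE) on the log2 scale, with unadjusted p = 0.0032 in limma. Aldh1a1, a retinaldehyde dehydrogenase of ventral nigral neurons, was at 186.7 to 279.3 TPM (median 229.2) in the higher set and 142.4 to 257.8 TPM (median 175.6) in the lower, with 3 of the 10 lower libraries inside the upper range. Ddc was at 71.4 to 142.0 TPM (median 116.6) against 46.3 to 132.0 TPM (median 75.6). The vesicular transporter gene Slc18a2 was at 26.2 to 53.2 TPM (median 41.4) against 11.3 to 59.7 TPM (median 26.2). Both overlapped widely.

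Ddc, Slc18a2 and Slc10a4, a vesicular transporter gene of monoamine and cholinergic neurons, followed Slc6a3 less tightly than Th did. Their r with Slc6a3 was 0.53, 0.52 and 0.54, and their r with Tph2 over the same 17 libraries was 0.36, 0.36 and 0.32. For Th the r with Tph2 was -0.13 and for Ret -0.20. The lowest Ddc of the higher set, 71.4 TPM in VB-127 replicate 4, stood beside a Tph2 of 18.1 TPM there, while VB-127 replicate 1, with Tph2 at 1.08 TPM, had Ddc at 119.6 TPM. The highest Slc18a2 of all, 59.7 TPM, came from a library of the lower set, control replicate 6, which also had the highest Tph2 (129.5 TPM) and the second highest Dbh (12.3 TPM). Gch1, which makes the cofactor of tyrosine and tryptophan hydroxylases, had r = 0.34 with Slc6a3 and 0.71 with Tph2. Pts, Spr, Maoa and Maob, enzymes of cofactor synthesis and amine breakdown that many cells make, did not reach an unadjusted p of 0.05.

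**Figure D2:**
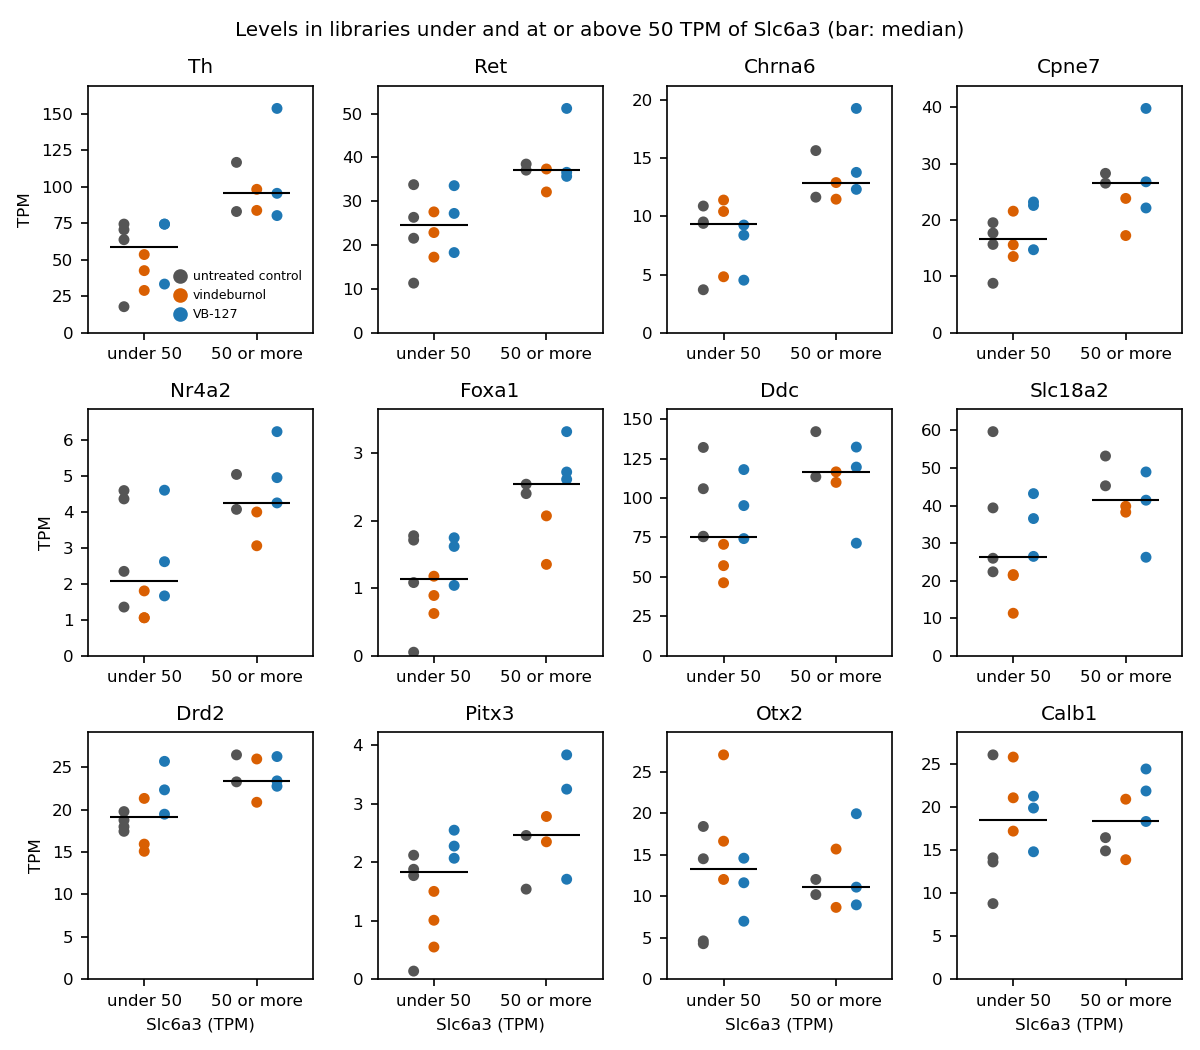
Levels in TPM of 12 genes in the 10 libraries with Slc6a3 under 50 TPM and the 7 libraries at 50 TPM or more, 1 point per library coloured by treatment, with a bar at each median. Th and Chrna6 do not overlap between the sets, Ret and Nr4a2 overlap in part, and Otx2 and Calb1 overlap throughout.

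Of 13 transcription factor genes tested, Nr4a2, Foxa1 and Pitx3 had an unadjusted p under 0.05, all higher (2.2% of all genes were). Nr4a2, an orphan nuclear receptor needed for Th and Slc6a3 expression, was at 3.06 to 6.24 TPM (median 4.25) in the higher set and 1.06 to 4.61 TPM (median 2.08) in the lower, a difference of 0.71 ± 0.19 (SE) with unadjusted p = 0.00122 in limma. Foxa1, a forkhead factor of these neurons and their progenitors, was at 1.35 to 3.32 TPM (median 2.54) against 0.0539 to 1.78 TPM (median 1.13). The Foxa1 sets overlapped over all libraries but not within any treatment. Pitx3, which among brain neurons marks the dopaminergic midbrain, was low throughout, at 1.54 to 3.83 TPM (median 2.45) against 0.137 to 2.54 TPM (median 1.82), with 6 of the 10 lower libraries inside the upper range.

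The other 10 factors did not reach an unadjusted p of 0.05. Foxa2 had a difference of 0.28 ± 0.20 (SE), with 0.258 TPM in control replicate 1 and 1.81 to 4.34 TPM in the other 16 libraries. Otx2, a factor of the ventral tegmental area and of much other midbrain tissue, was at 8.65 to 20.0 TPM in the higher set and 4.27 to 27.1 TPM in the lower. Its difference was 0.02 ± 0.29 (SE), and the sign turned under several settings. Sox6, of ventral nigral neurons, was at 2.55 to 7.34 TPM against 2.33 to 7.34 TPM.

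Of 17 receptor and channel genes, 8 had an unadjusted p under 0.05, all higher (2.2% of all genes were). Ret, the signalling receptor for glial cell line-derived neurotrophic factor, was at 32.1 to 51.2 TPM (median 37.1) in the higher set and 11.3 to 33.8 TPM (median 24.6) in the lower. It overlapped in 2 lower libraries, and not within any treatment, and differed by 0.68 ± 0.17 (SE) with unadjusted p = 0.000893 in limma. Chrna6, a nicotinic acetylcholine receptor subunit concentrated in midbrain dopaminergic neurons, was at 11.5 to 19.3 TPM (median 12.9) against 3.69 to 11.4 TPM (median 9.33), with no overlap. Chrnb3 and Chrna4, subunits that assemble with it, differed by 0.50 ± 0.18 and 0.36 ± 0.11 (SE).

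Ntsr1, a receptor for neurotensin, was at 5.30 to 8.98 TPM (median 6.35) in the higher set and 0.910 to 6.60 TPM (median 3.39) in the lower, with 1 lower library inside the upper range. Drd2, the dopamine autoreceptor gene of these neurons, was at 20.9 to 26.5 TPM (median 23.4) against 15.1 to 25.7 TPM (median 19.1). Gucy2c, a guanylyl cyclase receptor, and Tacr3, a tachykinin receptor, completed the 8, with differences of 0.45 ± 0.19 and 0.28 ± 0.13 (SE).

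Among 20 peptide, calcium-binding and subset marker genes, 5 had an unadjusted p under 0.05, all higher (2.2% of all genes were): Cpne7, Syt17, Ndnf, Anxa1 and Ajap1. Cpne7, which encodes a copine, a calcium-dependent membrane-binding protein, was at 17.2 to 39.8 TPM (median 26.5) against 8.76 to 23.2 TPM (median 16.7). Syt17, of the synaptotagmin family, was at 16.7 to 22.0 TPM (median 18.9) against 10.3 to 18.5 TPM (median 14.6). Anxa1, a marker of a ventral nigral subset, was at 1.68 to 4.19 TPM against 0.648 to 3.29 TPM. Markers of dopaminergic subsets that other midbrain neurons also make overlapped widely: Calb1 was at 13.8 to 24.4 TPM against 8.75 to 26.0 TPM, and Slc17a6, the vesicular glutamate transporter gene, at 76.2 to 112.8 TPM against 51.3 to 128.0 TPM.

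Of 14 genes tested that are linked to inherited Parkinson's disease, 0 had an unadjusted p under 0.05 in the comparison of the sets, where 2.61% of all genes did.

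A stricter reading of the sets asked that every library at 50 TPM or more exceed every library under it. Of 16152 genes, 3 did so (0.0186%), Th, Chrna6 and Cmbl, and 0 lay the other way (0%). Cmbl, which encodes a cytosolic hydrolase, was at 17.5 to 24.0 TPM against 12.4 to 17.5 TPM. With each treatment taken apart, 7 genes had every higher library above every lower one in all treatments (0.0433%), and 4 of them, Th, Ret, Chrna6 and Foxa1, were on the dopaminergic lists. Those lists held 61 of the 16152 genes tested. The test of whether the difference between the sets varied with treatment called 0 genes (0%) in limma, with 474 (2.93%) at an unadjusted p under 0.05.

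**Figure D3:**
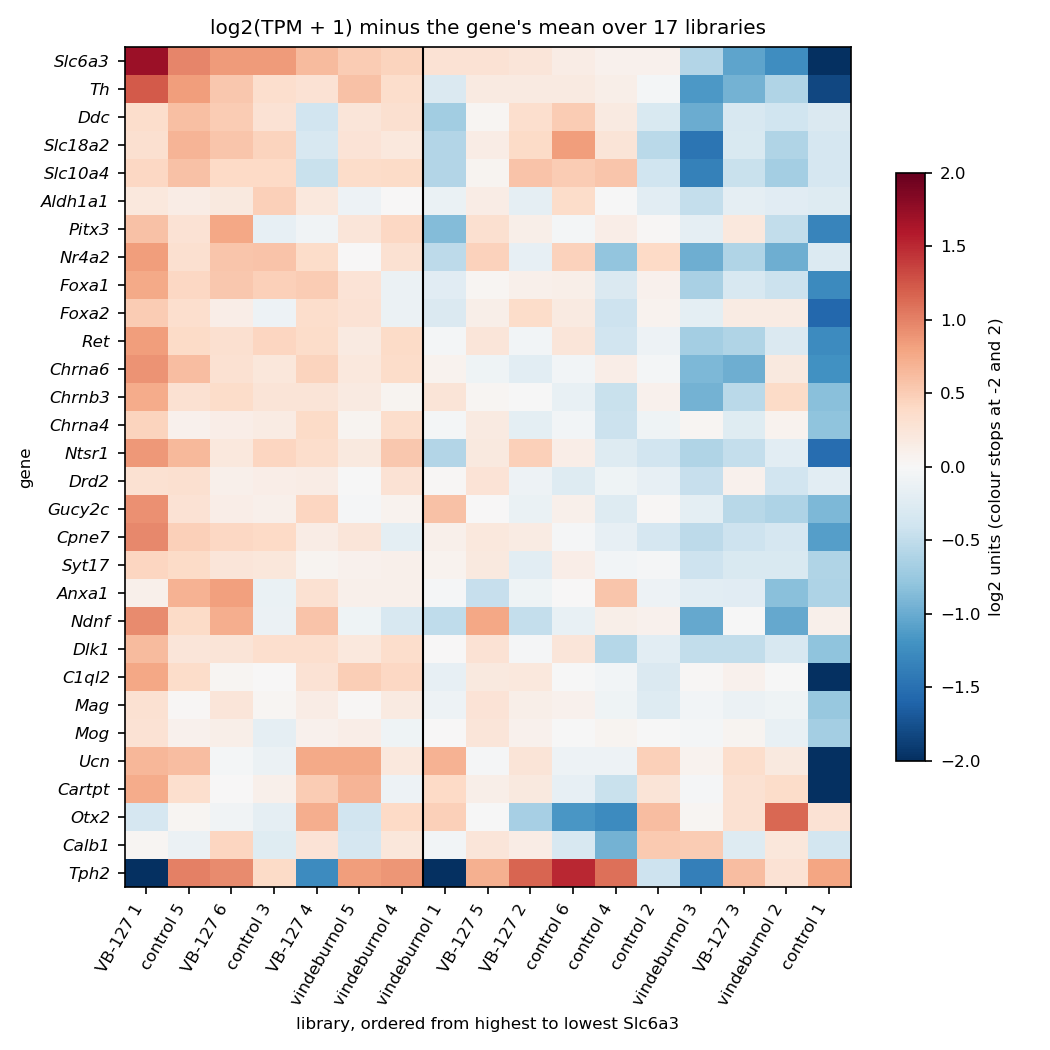
Each cell is the log2(TPM + 1) of a gene (rows) in a library (columns, from highest to lowest Slc6a3) minus that gene's mean over the 17 libraries; red is above and blue below the mean, and colours stop at 2 log2 units. The vertical line parts the sets. Th and Ret pass broadly from red to blue, and Chrna6 and Cpne7 do so with some libraries out of order. C1ql2, Ucn and Cartpt are deep blue in control replicate 1 alone, and Otx2 and Calb1 show no such order.

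A cut at 50 TPM discards the order within each set, so a second fit regressed the log2(TPM + 1) of each gene on that of Slc6a3, with treatment as a term. By this slope 19 genes passed an adjusted p of 0.05 in limma, all rising with Slc6a3 (0.118% of genes tested), and 0 fell (0%). At an unadjusted p under 0.05 there were 861 genes (5.33%), 4.01% of all genes with a slope above 0 and 1.32% with a slope below 0. This split depended on scaling: 75.1% of the 861 slopes were above 0 as deposited, against 49.9% of 1437 after median-ratio scaling and 52.9% of 1284 after quantile normalization, and 49.6% of 1639 with the Bc1 share as a covariate. Of the 61 dopaminergic genes, 23 had such a p with a slope above 0 and 1 with a slope below 0. The latter was the peptide gene Vip, at -0.20. A slope of 1 would mean that a gene rose by 1 log2 unit for each log2 unit of Slc6a3. 7 of the 19 were on the dopaminergic lists, which held 61 of the 16152 genes tested, and these 7 are described first.

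Th had the smallest p of all genes, with a slope of 0.53 (95% interval 0.42 to 0.65; adjusted p = 0.000269 in limma). Ret had a slope of 0.35 (0.25 to 0.45; adjusted p = 0.00182) and Cpne7 of 0.31 (0.22 to 0.40; adjusted p = 0.00409). Foxa1 had 0.34, Ntsr1 0.38, Chrna6 0.36 and Syt17 0.19, with adjusted p between 0.00542 and 0.0269. Dlk1, a membrane protein gene expressed in midbrain dopaminergic neurons and outside the lists, had a slope of 0.24 (adjusted p = 0.0440).

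Of these 8 genes, Th, Ret and Cpne7 were also called without control replicate 1. The other 5 were not, with slopes there of 0.41 for Foxa1, 0.45 for Ntsr1, 0.53 for Chrna6, 0.29 for Syt17 and 0.42 for Dlk1, each larger than with it.

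The peptide genes Ucn and Cartpt had slopes that shrank without control replicate 1. Ucn had the steepest slope of the 19, 0.79 (adjusted p = 0.0109), and Cartpt, the gene of the CART peptide, a slope of 0.54 (adjusted p = 0.0203). Both peptides are made by the centrally projecting neurons of the Edinger-Westphal nucleus, which lies close to the ventral tegmental area. Without control replicate 1 the Ucn slope was 0.16 (-0.07 to 0.39) and the Cartpt slope 0.13 (-0.07 to 0.34), neither called. In that library Ucn was listed at 0 and Cartpt was at 17.6 TPM, against 131.5 to 301.2 TPM of Cartpt in the other 16.

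C1ql2, a gene of a secreted synapse-organising protein of the complement C1q family, had a slope of 0.42 (adjusted p = 0.000397) and stood at 4.66 TPM in control replicate 1 and 22.4 to 47.7 TPM elsewhere. Without that library its slope was 0.23 (0.07 to 0.39) with unadjusted p = 0.00823, and it was not called. The myelin genes Mag, Mog and Cnp had slopes of 0.15, 0.12 and 0.11 with all libraries. Without control replicate 1 they were 0.13, 0.07 and 0.09, and not called. Mag there had an unadjusted p of 0.00635 in limma. All 10 genes of the oligodendrocyte list had slopes above 0 without that library, with a median of 0.095 beside 0.011 for all genes. At an unadjusted p under 0.05, 2 of them were higher, beside 1.31% of all genes. Mag was at 273.7 TPM in control replicate 1 and 387.0 to 569.1 TPM in the other libraries. Summed over 10 oligodendrocyte markers, the level was 6250 TPM in control replicate 1 and 6952 to 10357 TPM in the other 16 libraries, and the part of oligodendrocyte content in these slopes was not tested.

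**Figure D4:**
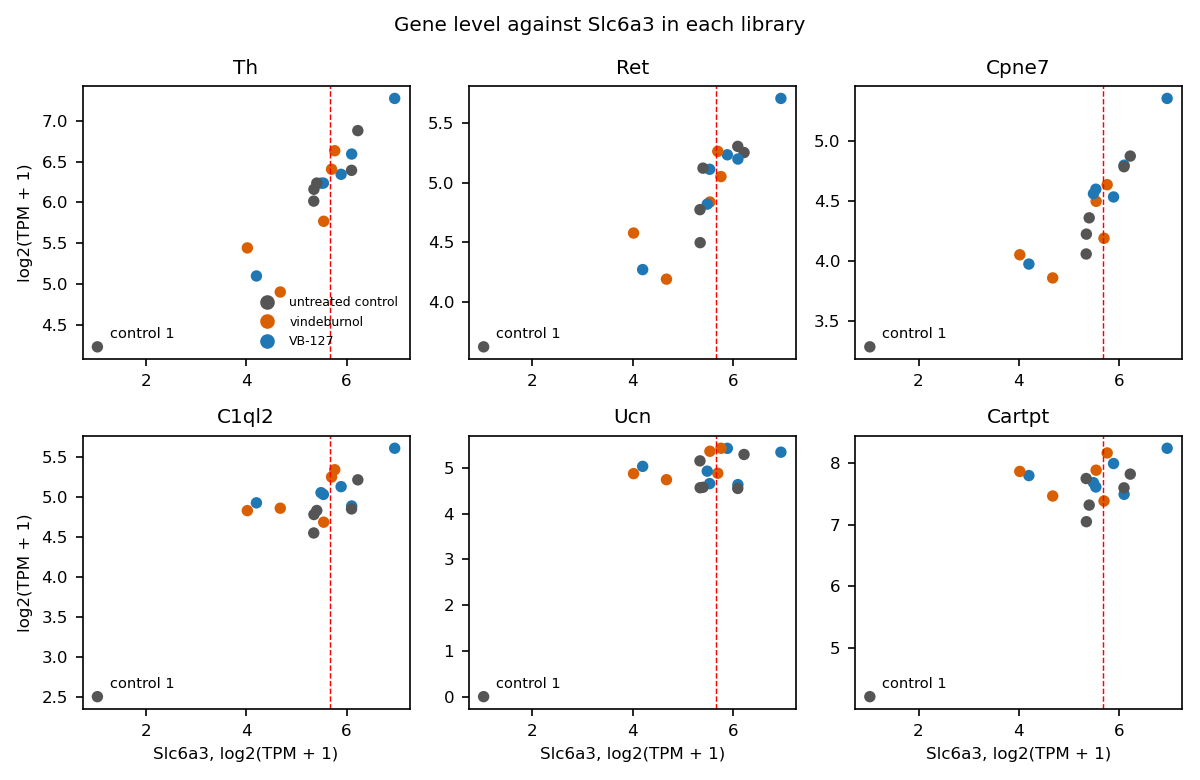
Level of 6 genes against Slc6a3, both as log2(TPM + 1), 1 point per library coloured by treatment, with control replicate 1 named and a dashed line at 50 TPM of Slc6a3. Th, Ret and Cpne7 rise along the whole range, whereas C1ql2, Ucn and Cartpt are far lower in control replicate 1 than in the other 16 libraries.

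The remaining called genes, Aldh1a7, Gsn, Dync1h1, Cd300c2 and the predicted gene Gm42742, were named because the slope called them, Cd300c2 also for its likeness to Slc6a3, and had slopes of 0.16 to 0.56. Aldh1a7 is a close paralog of Aldh1a1, so reads may be divided between them and its level is uncertain.

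Without control replicate 1, 4 genes passed the slope test (0.0248%), and 305 had an unadjusted p under 0.05 (1.89%). Th had a slope of 0.74 (0.55 to 0.94; adjusted p = 0.00372 in limma), Ret of 0.49 (0.33 to 0.66; adjusted p = 0.0384) and Cpne7 of 0.45 (0.30 to 0.61; adjusted p = 0.0384). The fourth, Iqschfp, is a readthrough transcript unit that shares sequence with its parent genes, so its level is uncertain; its slope was 0.65 (0.43 to 0.87; adjusted p = 0.0384). 3 of the 4 were on the dopaminergic lists, which held 61 of the 16152 genes tested. At an unadjusted p under 0.05, 18 of the 61 listed genes had a slope above 0 and 1 a slope below 0, beside 1.31% and 0.582% of all genes. The gene below 0 was again Vip, at -0.36. Nr4a2 had a slope of 0.57 (0.30 to 0.85; adjusted p = 0.533) without that library and 0.24 with it. In control replicate 1 Nr4a2 was at 2.35 TPM, above 5 other libraries of the lower set, although Slc6a3 was at 1.04 TPM. Pitx3 and Foxa2 were lowest in that library, at 0.137 and 0.258 TPM. The Pitx3 slope was 0.26 with it and 0.19 (-0.08 to 0.46) without it. For Foxa2 these slopes were 0.26 and 0.08 (-0.13 to 0.28), and neither gene was called in either fit.

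Without both control replicate 1 and VB-127 replicate 1, 0 genes passed the slope test in limma, with 239 at an unadjusted p under 0.05. Th then had a slope of 0.73 with adjusted p = 0.0743. Each of the 17 libraries was also left out alone. Th, Ret and Cpne7 were called in all 17 of these fits, with adjusted p of at most 0.00372 for Th and 0.0384 for Ret and Cpne7. The calls of C1ql2, Mag, Ucn and Gm42742, whose slopes were smaller without control replicate 1, and of Foxa1, whose slope was larger, were lost in that fit alone, and those of Ntsr1, Cartpt and Dync1h1 without control replicate 1 or control replicate 5. Chrna6 lost its call in 5 of the 17 fits, Syt17 in 6 and Dlk1 in 14. With a noradrenergic covariate and all 17 libraries, the slope still called Th, Ret, Dlk1 and Mag. It did not call Cpne7, Foxa1, Ntsr1, Chrna6 or Syt17.

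**Figure D5:**
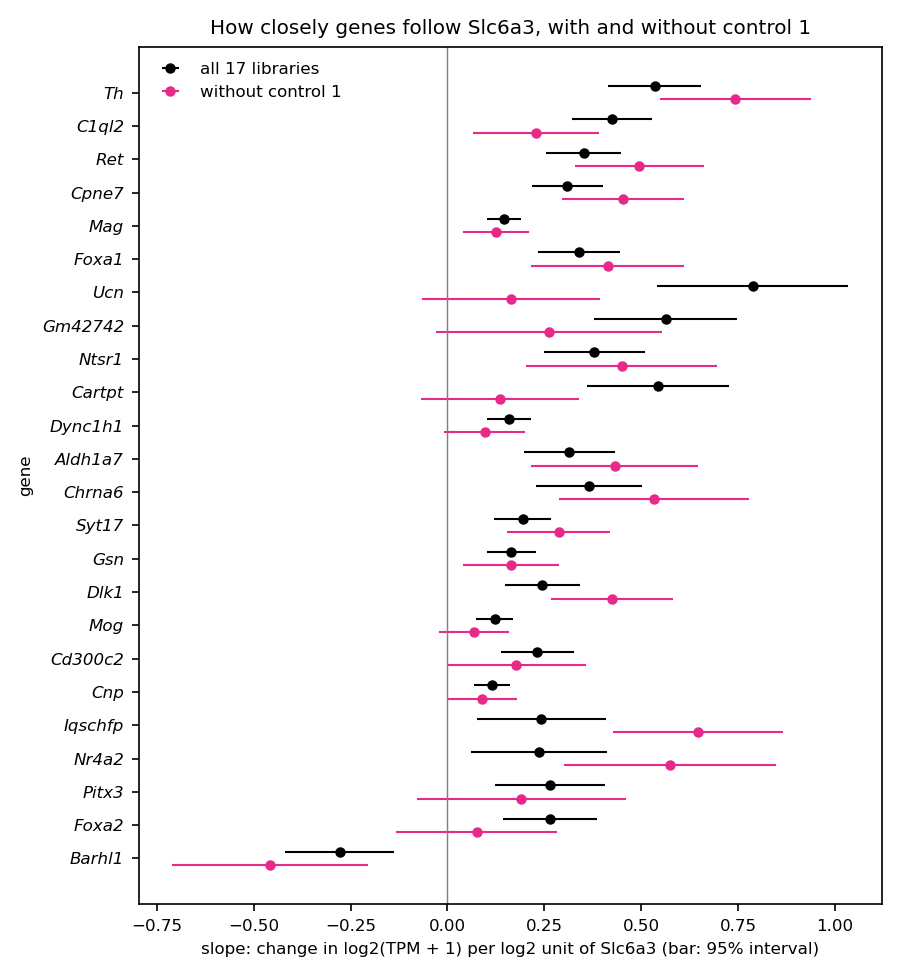
Slope of each gene on Slc6a3 (horizontal axis, change in log2(TPM + 1) per log2 unit of Slc6a3) with its 95% interval, for the 19 called genes and 5 others, over all 17 libraries (black) and without control replicate 1 (pink). Th, Ret, Cpne7 and Chrna6 have larger slopes without that library, while the slope of Ucn is 0.79 with it and 0.16 without it, and that of Cartpt 0.54 and 0.13.

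The genes whose levels ran most like Slc6a3 were ranked as a description, first among named genes that averaged 2 TPM or more, leaving out predicted genes. Over the 17 libraries the highest r belonged to Th (0.92), C1ql2 (0.91), Mag (0.90), Ret (0.90) and Cpne7 (0.89), and 4 of the first 12 were on the dopaminergic lists. Without control replicate 1 they were Th (0.90), Iqschfp (0.89), Cpne7 (0.88), Syt17 (0.88) and Ret (0.87), and 7 of the first 12 were on those lists. Olig1, outside those lists, was among the first 12 in both rankings, at 0.89 with that library and 0.83 without it. How many list genes met the conditions on mean and symbol was not counted. With no condition on mean or symbol, Foxa1 (0.93) came first over the 17 libraries and 5 of the first 12 genes were on the lists, which held 61 of the 16152 genes so ranked. Without control replicate 1, Th remained first, Gucy2c and Foxa1 followed Ret at 0.87 and 0.86, and 6 of the first 12 were on the lists. Ucn dropped from 0.87 to 0.36. Among the genes of lowest r over all libraries were Kcnip2 (-0.80), a gene of a potassium channel-interacting protein, and Cnih3 (-0.78), of an AMPA receptor auxiliary subunit. Both were highest in control replicate 1, at 23.0 and 24.8 TPM, and without it their r was -0.33 and -0.40. Neither slope was called in the main fit, but after median-ratio scaling Kcnip2 (-0.33, adjusted p = 0.0121 in limma) and Cnih3 (-0.34, adjusted p = 0.0268) were called as falling with Slc6a3. Of 28 alternative slope fits, 8 called Kcnip2 and 7 called Cnih3. Among these was the fit to the deposited values without control replicate 4, which called both.

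Markers of other cells were read from lists in the same way. The serotonergic list summed to 26.3 to 187.2 TPM (median 170.4) in the higher set and 37.2 to 240.2 TPM (median 151.3) in the lower, and at an unadjusted p under 0.05 it had 0 of its 8 tested genes, beside 2.61% of all genes. The noradrenergic list summed to 15.0 to 25.8 TPM (median 21.5) against 16.4 to 56.2 TPM (median 23.5). Of its 4 tested genes, 1 was lower at an unadjusted p under 0.05 (0.409% of all genes were), the peptide gene Gal, at 0.727 to 3.36 TPM against 1.13 to 7.67 TPM. Hox genes of the hindbrain summed to 0 to 2.72 TPM (median 0.193) against 0 to 18.4 TPM (median 0.141), and none of the 12 was expressed widely enough to be tested.

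Of 12 genes of red nucleus and other midbrain glutamatergic neurons, 0 had an unadjusted p under 0.05 between the sets, where 2.61% of all genes did. By slope without control replicate 1, 3 of these 12 were lower at an unadjusted p under 0.05, where 0.582% of all genes were. Barhl1, a homeobox gene of the subthalamic and mammillary region, was one, at 2.12 to 7.88 TPM in the higher set and 3.50 to 11.5 TPM in the lower. Its slope was -0.46 (-0.71 to -0.20; unadjusted p = 0.00132 in limma) without control replicate 1 and -0.28 with it, and it was not called in either. Of 7 tested genes of a forebrain list, 1 was higher and 0 lower between the sets at an unadjusted p under 0.05, beside 2.2% and 0.409% of all genes. The list's median difference was 0.01 and its median slope over all libraries -0.09. The higher gene, Otx1, active in midbrain too, was at 3.18 to 4.44 TPM (median 3.47) against 1.07 to 3.76 TPM (median 2.37), with unadjusted p = 0.0046 in limma.

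Of the glial and vascular lists, none had a call between the sets. Estimates above 0 made up 70.6% of all genes and 5 of 9 astrocyte genes, whose median was 0.01 on the log2 scale. All 10 oligodendrocyte and all 10 microglial genes had estimates above 0 as deposited, as did 9 of 10 endothelial and mural genes, with list medians of 0.12, 0.17 and 0.26 on the log2 scale. Oligodendrocyte estimates were above 0 for 9 of 10 genes after median-ratio scaling or quantile normalization. Under both, microglial estimates were above 0 for 10 of 10 genes, with a median of 0.12. Endothelial and mural estimates were above 0 for 9 of 10 genes, with medians of 0.21 and 0.20. The median over all genes was 0.005 after median-ratio scaling and -0.003 after quantile normalization. The share of all genes above 0 was not counted after either scaling. The list sums overlapped: 7984 to 10055 TPM against 6250 to 10357 TPM for oligodendrocytes, 444.2 to 578.7 TPM against 426.5 to 668.3 TPM for microglia, and 368.0 to 477.9 TPM against 263.0 to 475.6 TPM for vessels. Cldn5, a tight junction gene of brain endothelium, was at 43.9 to 73.2 TPM against 25.2 to 62.4 TPM, with unadjusted p = 0.00259. The part of these cells in the differences of the dopaminergic genes was not tested. Bc1, a short neuronal RNA, took 16.9% to 25.9% of the TPM total in the higher set and 16.1% to 35.3% in the lower.

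The genes outside the dopaminergic lists with the smallest p between the sets did not pass the threshold. Besides Dlk1, Cmbl and Iqschfp, Sumf2, a gene related to a sulfatase-modifying enzyme, was at 8.03 to 17.8 TPM in the higher set and 6.62 to 11.6 TPM in the lower. Dlk1 was at 77.3 to 104.2 TPM (median 83.8) against 37.7 to 81.7 TPM (median 55.2), a difference of 0.55 ± 0.13 (SE) with unadjusted p = 0.00053 in limma. In the other direction the smallest p belonged to Nupr2, Stk33, Med9os, Smchd1, Immp2l and Lyrm7. Nupr2 was at 0.563 to 2.15 TPM (median 0.827) against 1.18 to 5.56 TPM (median 2.43), and Smchd1, a chromatin protein gene, at 6.38 to 8.64 TPM (median 8.08) against 6.54 to 15.5 TPM (median 9.78).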

How the data were processed

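The deposited gene-level TPM of 78298 genes in 17 libraries was used; reads were aligned with STAR and quantified with Salmon on GRCm39 (mm39), per the submitters' processing notes. TPM keeps no read depth, and precision comes from replicate libraries. The analysis scale was log2(TPM + 1), which understates changes of low genes. Genes reaching 1 TPM in at least 5 libraries were tested, 16152 without Slc6a3. limma 3.58.1 (R 4.3.3; trend and robust moderation, two-sided, Benjamini-Hochberg over all genes tested) was fitted with set and treatment as terms. The slope on Slc6a3 was listed as an alternative at the outset; its fits under other settings were added after the data were seen.

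The members, threshold and gene lists were chosen with earlier results of these data known. The labels do not say that libraries came from separate animals, so p-values measure the spread between samples, which may be technical. Named genes were members of the dopaminergic lists, the 6 genes of smallest p per direction with a mean of at least 2 TPM, the 12 of highest and 6 of lowest r, up to 4 per other list, and 9 fixed markers. Aldh1a7, Gsn, Dync1h1, Gm42742, Otx1, Gal, Cldn5 and Barhl1 were named, and the correlations with Tph2 were added, after their values were seen. The fit was tested on simulated data. A table of all libraries with the same values was not used here. Promoters came from RefSeq (GRCm38.p6). Some genes of the lists are not reported here.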

Additional observations from a re-analysis of the deposited data

Results flagged for a closer look

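In a set of 4 to 10 libraries, a value counts here when its gap to the next library takes up more of the set's range than Dixon's 95% critical value. Of 106 gene and set pairs looked at, 16 did so, and 10 of these were in control replicate 1; chance gives about 1 in 20. That rate is no yardstick here, since Slc6a3 defined the sets and many of the genes were named because the slope over all libraries called them. Control replicate 1 was the lowest of the set under 50 TPM for Slc6a3 (1.04 TPM), Foxa2 (0.258 TPM), C1ql2 (4.66 TPM), Mag (273.7 TPM), Mog (81.2 TPM), Cnp (261.3 TPM), Dync1h1 (60.5 TPM), Gm42742 (3.55 TPM), Cartpt (17.6 TPM) and Ucn, which was listed at 0.

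In the set at 50 TPM or more, VB-127 replicate 1 was the highest for Slc6a3 (123.6 TPM), Ret (51.2 TPM) and Dlk1 (104.2 TPM) and the lowest for Tph2 (1.08 TPM). VB-127 replicate 4 was the lowest of that set for Ddc (71.4 TPM) and Slc10a4 (17.2 TPM).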

How the results depend on the processing

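The count of 0 genes called between the sets became 19 with the slope on Slc6a3, 1 at a threshold of 25 TPM (Th) and 1 at 40 TPM (Dlk1). It became 4, 7 and 5 within control, vindeburnol and VB-127 libraries alone, where 2, 2 and 3 libraries were in the higher set. None of the genes called within a treatment was on the dopaminergic lists. The cause of these changes was not tested. The count was 0 in all fits that left out 1 library. The 422 genes at an unadjusted p under 0.05 became 1059 without the filter (more genes tested), 866 with library weights, 861 with the slope, 1103 at 40 TPM, 801 with a noradrenergic covariate and 682 within VB-127 libraries, and 339 to 670 with 1 library left out. The 2 highest of these came without vindeburnol replicate 2 (670) and control replicate 6 (658).

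The 19 genes called by slope became 0 without control replicate 1 and VB-127 replicate 1, 32 with median-ratio scaling, 29 without a treatment term, 37 with the Bc1 share, 6 with a noradrenergic covariate, 29 with a pseudocount of 0.1 and 10 with library weights. With 1 library left out they ranged from 4 to 21: 4 without control replicate 1, 8 without control replicate 5, 11 without VB-127 replicate 1, and 12 without VB-127 replicate 3 or vindeburnol replicate 5. The 861 genes at an unadjusted p became 239 without the first pair, 1437, 1639 and 1872 with median-ratio scaling, the Bc1 share and the noradrenergic covariate, and 305 to 1051 with 1 library left out.

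Otx2 (0.02) turned to -0.020 with median-ratio scaling, -0.036 with quantile normalization, -0.080 with library weights, -0.16 by slope, -0.49 at 25 TPM, -0.37 at 40 TPM, -0.10 with the Bc1 share, -0.55 within vindeburnol libraries, and ranged from -0.092 to 0.179 with 1 library left out, below 0 without VB-127 replicate 2 or 4, vindeburnol replicate 3, or control replicate 4, 5 or 6. Ucn turned to -0.076 with the noradrenergic covariate. Tph2 (-0.28) turned to 0.24 with it, 2.14 within vindeburnol libraries and ranged from -0.60 to 0.35 with 1 library left out, above 0 without VB-127 replicate 1.

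Same-numbered libraries were not more alike than others. Their deviations correlated between -0.20 and 0.11 (median -0.04), against a median of 0.02 for different numbers, and 1 of 17 libraries correlated best with its own number. Whether libraries of the same number shared a batch was not tested. With a replicate block, 0 genes were called between the sets (318 at an unadjusted p) and 7 by slope (575). Depth is unknown, so no limit from counting can be given.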
